A study of Mus musculus with 78 samples.

Results

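The mitochondrial ribosome and mitochondrial tRNA synthetase genes comprised 95 of the 54532 rows of a table of mouse cerebral artery transcripts, of which 22046 were annotated as protein coding. Members were the protein-coding rows whose symbol began with Mrpl or Mrps followed by a digit, or ended in ars2. They are called here 49 large subunit genes (Mrpl), 29 small subunit genes (Mrps) and 17 synthetase genes. The subunit was taken from the symbol alone and was not checked for each protein. The tissue was cerebral artery from male wild-type C57Bl6 mice, fed ad libitum (AL) or kept on intermittent fasting (IF) for 3 months and then given sham surgery or BCAS (stenosis of the carotid arteries on both sides, a model of chronically reduced blood flow to the brain). Arteries were taken on days 1, 7, 14, 21 and 30, which gave 20 groups and 78 libraries, 4 in each of 18 groups and 3 in each of the other two (sham IF on day 7 and BCAS AL on day 1). Day 7 rests on the group labels alone, since the protocol text of the labels names the other 4 days. Every library had its own title, but nothing in the labels says that each came from a separate animal, so p-values measure the spread between libraries, which may be technical. All groups share strain, sex and genotype, and neither the fasting schedule nor the animals' age is known from the sources used here.

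Mitochondria carry their own small genome, which codes for core subunits of the respiratory chain. Its messages are read by a dedicated ribosome with a large and a small subunit, whose proteins are all encoded in the nucleus (Mrpl and Mrps genes) and imported. The ars2 genes encode the enzymes that load amino acids onto the mitochondrial tRNAs, and inherited defects in them and in the ribosomal proteins impair oxidative phosphorylation, often in brain, heart or muscle. In arteries, mitochondrial respiration serves smooth muscle and endothelium.

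Values were FPKM, that is fragments divided by gene length and scaled to library depth, a level that can be compared between genes. Recovered depth ranged from 14601572 to 25944175 fragments per library. Smooth muscle markers (Acta2, Myh11, Tagln, Cnn1 and Des) summed to between 2052 and 8578 FPKM and endothelial markers (Pecam1, Cdh5, Cldn5 and Tek) to between 422 and 909 FPKM, so both cell types were represented in every library, whereas neuronal markers (Snap25, Syt1, Rbfox3 and Nefl) summed to between 0.683 and 10.6 FPKM. In these bulk samples, fewer cells of a type and less RNA per cell cannot be told apart. In 3 libraries the share of fragments on genes shorter than 300 bases was over 2 times the median library's, namely sham AL day 7 replicates 2 (0.282%) and 4 (0.322%) and BCAS AL day 1 replicate 2 (0.279%), and results that rest on them are given with and without them.

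Promoter sequences are shown for 4 members to make visible how unlike they are across the set. RefSeq (GRCm38.p6) held a promoter window, 250 bases before to 50 bases after the annotated start, for 83 of the 95 members. Lars2, the leucine enzyme whose level varied most among the members, is followed by Mrps12 (a small subunit protein of the decoding centre), Wars2 (the tryptophan enzyme) and Aars2 (the alanine enzyme). Capitals mark matches, on either strand, to the core letters GCGCANGCG of NRF-1, CCGGAAG of ETS factors, AAGATGG of YY1 and CACGTG of the E-box. The windows are on chr9:123366677-123366976 (plus strand), chr7:28741772-28742071 (minus strand), chr3:99140840-99141139 (plus strand) and chr17:45506582-45506881 (plus strand).
Lars2: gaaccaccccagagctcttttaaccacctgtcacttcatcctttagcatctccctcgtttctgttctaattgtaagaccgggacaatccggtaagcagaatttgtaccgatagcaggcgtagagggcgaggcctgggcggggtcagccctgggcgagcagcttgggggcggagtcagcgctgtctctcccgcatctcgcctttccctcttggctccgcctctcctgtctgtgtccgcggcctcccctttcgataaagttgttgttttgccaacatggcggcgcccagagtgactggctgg
Mrps12: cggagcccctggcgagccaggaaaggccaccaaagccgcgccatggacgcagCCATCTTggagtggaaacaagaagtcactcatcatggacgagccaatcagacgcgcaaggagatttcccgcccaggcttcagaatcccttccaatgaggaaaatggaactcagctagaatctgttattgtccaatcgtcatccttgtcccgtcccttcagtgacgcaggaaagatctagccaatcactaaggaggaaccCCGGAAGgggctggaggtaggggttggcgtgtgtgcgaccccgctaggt
Wars2: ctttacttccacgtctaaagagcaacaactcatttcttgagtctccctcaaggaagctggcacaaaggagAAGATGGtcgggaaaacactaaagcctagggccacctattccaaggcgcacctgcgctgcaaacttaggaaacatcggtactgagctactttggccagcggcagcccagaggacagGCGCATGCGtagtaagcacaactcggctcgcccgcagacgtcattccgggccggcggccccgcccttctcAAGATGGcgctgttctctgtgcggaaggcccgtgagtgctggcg
Aars2: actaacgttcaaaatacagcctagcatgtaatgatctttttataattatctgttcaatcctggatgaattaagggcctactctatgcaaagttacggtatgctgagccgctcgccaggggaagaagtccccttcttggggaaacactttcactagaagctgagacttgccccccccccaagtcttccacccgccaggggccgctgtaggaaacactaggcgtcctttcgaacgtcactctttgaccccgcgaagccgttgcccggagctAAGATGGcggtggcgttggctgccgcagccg

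The window of Lars2 held none of the searched letters. Mrps12 held the ETS and YY1 letters, Wars2 the NRF-1 letters once and the YY1 letters at 2 places, and Aars2 the YY1 letters. Over the 83 members with a window, 30 held the ETS letters (36.1%), 20 the NRF-1 letters (24.1%), 16 the YY1 letters (19.3%) and 6 the E-box letters (7.23%). Among the windows of 9709 protein-coding genes measured in these arteries the shares were 19.3%, 14.8%, 8.26% and 11.6% in that order. A match is a description of the letters and not evidence of binding. NRF-1, the ETS factor GABP and YY1 are known regulators of nuclear genes for mitochondrial proteins.

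Of the 95 members, 94 passed the filter of at least 1 FPKM in at least 3 libraries: 48 large subunit genes, all 29 small subunit genes and all 17 synthetases. Mrpl53 was listed at 0 in all 78 libraries, and 88.0% of its exon bases are shared with other annotated genes. Large subunit genes had a median level of 15.7 FPKM (range of the gene means, 2.07 to 95.8) and small subunit genes one of 11.1 FPKM (2.75 to 109.5). The synthetases were lower, with a median of 2.55 FPKM (0.733 to 7.28), and 14 of the 17 lay under 5 FPKM, against 5 of 48 and 7 of 29 in the subunits. For all protein-coding genes measured the median was 5.80 FPKM. The 5 highest members were Mrps21 at 109.5 FPKM, Mrpl34 at 95.8, Mrpl52 at 72.7, Mrps6 at 57.4 and Mrpl27 at 55.4, all of them structural proteins of the ribosome. The 5 lowest of those measured were synthetases, namely Mars2 (methionine) at 0.733 FPKM, Nars2 (asparagine) at 0.780, Wars2 at 0.945, Ears2 (glutamate) at 1.1 and Cars2 (cysteine) at 1.63.

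**Figure D1:**
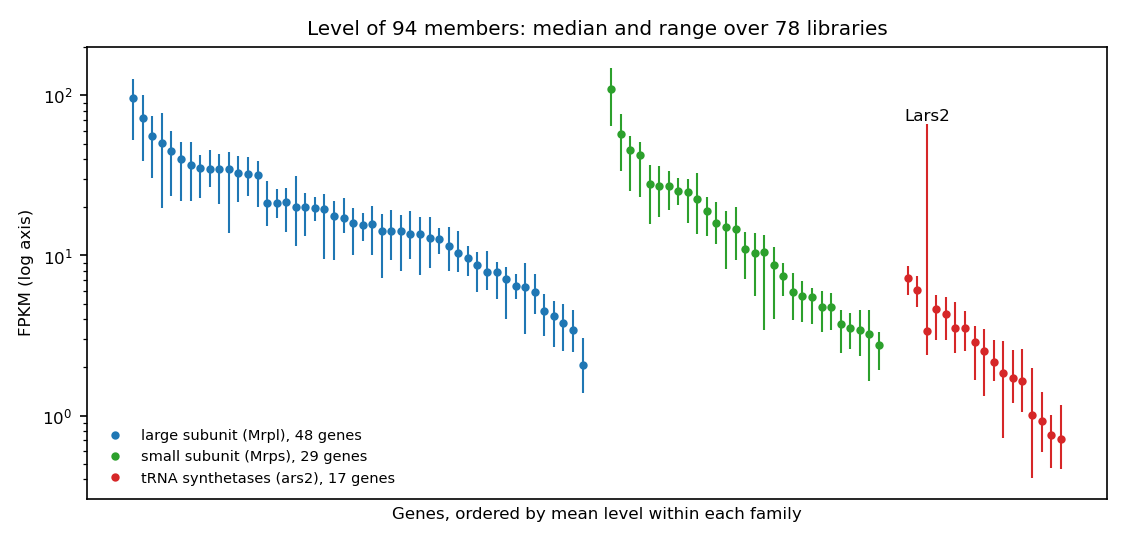
Median level (points) and full range (lines) over 78 libraries of each of the 94 members, in FPKM on a log axis, ordered by mean level within the large subunit, small subunit and synthetase genes. The synthetases lie lowest, and Lars2 has a range of 2.39 to 66.0 FPKM while its median stays at 3.35 FPKM.

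Across the 78 libraries, the log2 level of a large subunit gene had a median Pearson correlation of 0.69 with the mean of the other members, a small subunit gene 0.65 and a synthetase −0.03. Single genes departed from these medians, with 0.65 for Tars2 (threonine) and −0.37 for Cars2 among the synthetases and −0.12 for Mrpl24 among the large subunit genes. The correlations are a description, since members of 1 library share its depth, RNA and gene length range. The listed gene length had a median of 2394 bases for large subunit genes, 2172 for small subunit genes and 5460 for synthetases. Exon bases were shared with another annotated gene in 41 members, and in 7 of them the share was over 25%. The latter include Mrps25 (69.8%, with Nr2c2) and Mrpl24 (26.3%, with Rrnad1). Whether counting used strand was not given in the sources used here, so reads of such pairs cannot be told apart with certainty. The processed pseudogenes of Mrpl23, Mrpl48 and Mrps36 were listed at means of 0 to 1.44 FPKM.

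Group differences among the members other than Lars2 were small. The mean log2 level of the other 93 members ranged from 3.44 to 3.68 over the 20 group means, with a pooled SD of 0.07 within groups. A limma test over the 20 groups with Benjamini-Hochberg adjustment over 15707 genes passed the threshold of 0.05 for 38 of these 93, or 40.9%, a share near the 42.7% of all genes. Lars2 was singled out on its day 7 values, so it is left out of every count of calls that uses day 7 libraries, namely those on day 7, over the mean of the days and over all groups. The largest F statistics among members other than Lars2 were those of Mrps25 (5.97), Iars2 (5.04) and Ears2 (5.03). The SD of the 20 log2 group means was 0.71 for Lars2, 0.18 for Ears2, 0.17 for Mrps21 and for Mrpl34, and 0.15 for Mrps12. At the other end it was 0.04 for Mrpl3, a large subunit protein whose group means stayed between 6.18 and 6.82 FPKM.

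No member passed the test for stenosis outside days 1 and 7 under free feeding. Averaged over the 5 days, 0 of 93 members passed the limma test (adjusted p) for BCAS against sham under AL, where 0.987% of all genes did, and 0 of 93 under IF, where 0.758% did. At an unadjusted p under 0.05 the counts were 6 and 2, and limma-voom on recovered fragments also called 0 in both. Counts at an unadjusted p, here and below, stand without the share of all genes, so they are not read as results about the members. The median log2 change of the members was 0.02 under AL and 0.002 under IF, against 0.003 and 0.001 for all genes, and a p that misses the threshold does not show that levels were equal. The members nearest to the threshold under AL were Mrpl40, with a log2 change of 0.12 ± 0.04 (SE, adjusted p = 0.147, limma), and Mrps15 at 0.11 ± 0.04 (adjusted p = 0.274). Under IF they were Mrps5 at −0.09 ± 0.04 (adjusted p = 0.360) and Wars2 at 0.10 ± 0.05 (adjusted p = 0.442), or 0.23 by limma-voom. The difference of the stenosis effect between diets passed for 0 of 93 members over the mean of the days (0.0127% of all genes, 2 members at an unadjusted p under 0.05, 0 by limma-voom).

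On single days after stenosis, 0 of 94 members passed on days 14, 21 and 30 under AL, where 0.337%, 0% and 0.357% of all genes did. Under IF, 0 passed (of 94, and of 93 on day 7) on days 1, 7, 14, 21 and 30, where 0.00637%, 0.153%, 0%, 0% and 0.0891% of all genes did. At an unadjusted p under 0.05 the counts under AL were 4, 4 and 6 of 94, and under IF they were 3, 6, 1, 3 and 11. Limma-voom called 0 members in all of these. On day 30 under IF, the members had a median log2 difference from sham of 0.07, against 0.003 for all genes. Members measured in the same libraries are not separate observations, and this difference in medians was not tested. The members nearest to the threshold there were Rars2 (arginine) at −0.28 ± 0.09 (SE, adjusted p = 0.217, limma) and Mrpl34 at 0.37 ± 0.13 (adjusted p = 0.242).

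Fasting contrasts had more calls among the members, in both directions. After sham surgery, the mean over the 5 days of IF against AL passed the test for 20 of 93 members, 12 higher and 8 lower, where 23.7% of all genes passed (11.8% higher and 11.9% lower). After stenosis it passed for 20, 6 higher and 14 lower, where 23.1% of all genes passed (11.2% higher and 11.9% lower). The share of members, 21.5% in each surgery, was near that of all genes. The split after sham was 4 higher and 10 lower without day 7. It was 7 higher and 15 lower without the libraries rich in short-gene fragments. With libraries centred on their median it was 14 higher and 6 lower, and by limma-voom 11 higher and 10 lower. Without a filter on low values, 12 members in all passed after sham and 10 in all after stenosis. The medians over the members were −0.01 after sham and −0.01 after stenosis on the log2 scale, against 0.01 and 0.002 for all genes. By symbol, large subunit genes had 4 higher and 3 lower of 48 after sham and 1 higher and 6 lower after stenosis. Small subunit genes had 5 higher and 2 lower of 29 after sham and 3 higher and 5 lower after stenosis. The 16 synthetases other than Lars2 had 3 higher and 3 lower after sham and 2 higher and 3 lower after stenosis.

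The fasting contrasts after sham and after stenosis use separate libraries, and 11 members passed in both, each in the same direction. They are 55% of the 20 members called in each surgery. For all genes the shared calls were 2405, or 64.7% and 66.4%. Fars2, Iars2, Mrpl2, Mrps9, Mrps10 and Mrps26 were higher under fasting, and Cars2, Ears2, Yars2, Mrpl24 and Mrps25 were lower. Of these, 5 passed in both surgeries whichever single library was left out and also when day 7 was dropped from the mean: Ears2, Iars2, Mrpl2, Mrps9 and Mrps25. Without the libraries rich in short-gene fragments 6 passed in both: Ears2, Iars2, Mrpl2, Mrpl24, Mrps25 and Mrps26. Without a filter on low values 6 did: Ears2, Iars2, Mrpl2, Mrps9, Mrps25 and Yars2. Limma-voom gave 10 in both, and so did a fit of only the groups compared. Leaving out day 7 was chosen after the data were seen, because the sham AL libraries of that day stood apart.

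Ears2, which charges the mitochondrial glutamate tRNA, was the synthetase with the largest fasting difference after Lars2. After sham surgery, the 20 AL libraries ranged from 0.842 to 1.98 FPKM with a median of 1.31, and the 19 IF libraries ranged from 0.517 to 1.27 FPKM with a median of 0.919. After stenosis, the 19 AL libraries ranged from 0.928 to 1.99 FPKM with a median of 1.29, and the 20 IF libraries ranged from 0.407 to 1.39 FPKM with a median of 0.843. The fasted libraries lay lower in both surgeries and the ranges overlapped. On the log2(FPKM + 1) scale Ears2 fell by 0.26 ± 0.05 after sham (SE, adjusted p = 0.000143, limma) and by 0.34 ± 0.05 after stenosis (adjusted p = 6.78e-07), a scale that understates the change of a gene near 1 FPKM. With limma-voom on recovered fragments the changes were −0.51 and −0.68, and with a pseudocount of 0.1 they were −0.45 and −0.61. It was lower under fasting on 4 of 5 days after sham and on 5 of 5 after stenosis. The neighbouring gene Ubfd1, which shares 1.73% of the exon bases of Ears2, fell by 0.36 ± 0.04 and 0.33 ± 0.04 (limma adjusted p = 1.12e-09 and 1.05e-08).

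The difference in Ears2 was widest on day 14 after stenosis. The 4 AL libraries read 1.99, 1.80, 1.29 and 1.31 FPKM, and the 4 IF libraries read 0.407, 0.789, 0.779 and 0.699 FPKM. The groups did not overlap, and Ears2 fell by 0.63 ± 0.11 on the log2 scale (SE, adjusted p = 0.000115, limma), with Mrps22, a small subunit protein, the other of 2 members that passed on that day, both lower, where 5.67% of all genes did (2.55% higher and 3.11% lower). With limma-voom the change of Ears2 was −1.28, and with a pseudocount of 0.1 it was −1.15. Mrps22 fell by 0.30 ± 0.09 (adjusted p = 0.0211), and it lost the call without BCAS AL day 14 replicate 2 or BCAS IF day 14 replicate 1.

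Iars2, which charges the isoleucine tRNA, was higher under fasting. After sham surgery, AL libraries ranged from 5.09 to 6.45 FPKM with a median of 5.70, and IF libraries from 5.03 to 7.10 FPKM with a median of 6.38. After stenosis, AL libraries ranged from 4.74 to 6.58 FPKM with a median of 5.82, and IF libraries from 5.84 to 7.39 FPKM with a median of 6.47. The medians were thus apart by less than 1 FPKM, with overlapping ranges. The log2 change was 0.12 ± 0.03 after sham (SE, adjusted p = 0.00142, limma) and 0.16 ± 0.03 after stenosis (adjusted p = 1.34e-05). Of the exon bases of Iars2, 24.2% are shared with Rab3gap2 and 2010103J01Rik.

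Mrpl2 and Mrps9, proteins of the large and the small subunit, were also higher under fasting. Mrpl2 had medians of 36.8 FPKM in AL and 41.8 in IF after sham, and of 37.3 and 41.5 FPKM after stenosis. Its log2 change was 0.19 ± 0.05 (SE, adjusted p = 0.00114, limma) after sham and 0.14 ± 0.05 (adjusted p = 0.0178) after stenosis, and it was positive on 5 of 5 days in each surgery. Mrps9 had medians of 4.60 FPKM in AL and 4.99 in IF after sham, and of 4.51 and 5.04 FPKM after stenosis. Its log2 change was 0.11 ± 0.04 (adjusted p = 0.0193, limma) and 0.15 ± 0.04 (adjusted p = 0.00141), again positive on 5 of 5 days in each surgery. Without the libraries rich in short-gene fragments, Mrps9 no longer passed after sham (0.09, adjusted p = 0.0666, limma).

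Mrps25, a small subunit protein found in mitochondrial but not bacterial ribosomes, was lower under fasting. Its medians were 5.20 FPKM in AL and 4.29 in IF after sham, and 4.95 and 4.43 FPKM after stenosis, with overlapping ranges. It fell by 0.18 ± 0.03 on the log2 scale (SE, adjusted p = 5.61e-05, limma) and by 0.14 ± 0.03 (adjusted p = 0.0015), lower on 4 of 5 days in each. Most exon bases of Mrps25 are shared with Nr2c2, as given above, so reads of the pair cannot be told apart with certainty. No fasting change of Nr2c2 is given here. Mrpl24 fell by 0.11 ± 0.04 after sham (adjusted p = 0.0325, limma), while Rrnad1, with which it shares exon bases, fell by 0.19 ± 0.04 (adjusted p = 0.000203).

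**Figure D2:**
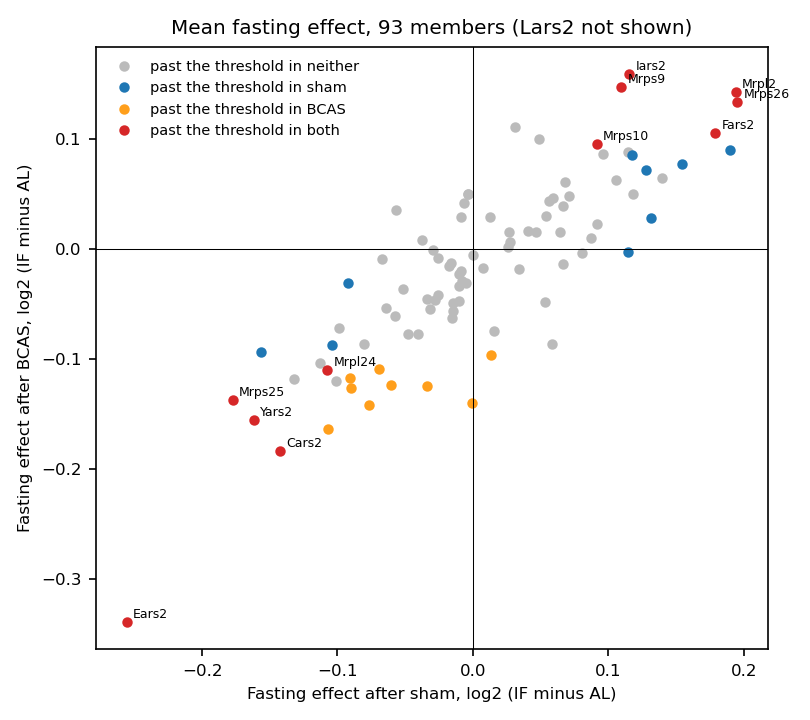
Mean fasting effect over the 5 days, as the log2 difference of IF minus AL, for 93 members after sham surgery (horizontal axis) and after stenosis (vertical axis). Colours give the surgeries in which a member passed the limma test, and the 11 members named passed in both, with Ears2 lowest at −0.26 and −0.34 and Iars2 highest on the vertical axis at 0.16.

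Lists of genes that work beside the members are read against the 23.7% and 23.1% of all genes that passed in the fasting means, and differences between lists were not tested. Of 18 cytosolic tRNA synthetases measured, 1 was higher and 8 were lower after sham, and 3 were higher and 8 lower after stenosis, with medians of −0.07 and −0.06 on the log2 scale. Iars, the cytosolic isoleucine enzyme, fell by 0.35 ± 0.04 after sham (SE, adjusted p = 3.48e-09, limma) and by 0.26 ± 0.04 after stenosis (adjusted p = 1.77e-06), whereas its mitochondrial counterpart Iars2 was higher. Qars, the glutamine enzyme, rose by 0.11 ± 0.03 in each (adjusted p = 0.00307 and 0.00174). The 13 protein genes of the mitochondrial genome had 2 higher after sham and 1 higher after stenosis. Of 20 ribosome assembly genes, 2 were higher and 1 lower after sham, and 2 higher and 3 lower after stenosis. Mitochondrial translation factors had 1 of 10 lower after sham and 2 of 10 lower after stenosis. The 5 mitoribosomal proteins with other names had 1 higher in each surgery, and the 5 amidotransferase subunits and dual-localised synthetases had 0 past the limma threshold in each, with 0 at an unadjusted p under 0.05. Transfer RNA processing genes had 3 of 13 called after sham and 2 of 13 after stenosis, and genes of mitochondrial DNA transcription and RNA stability 2 of 9 and 1 of 9. Of the cell type markers, the 5 smooth muscle genes had 0 past the limma threshold in each surgery and 0 at an unadjusted p under 0.05. Pericyte markers had 2 of 4 higher after sham, fibroblast markers 1 of 4 higher in each surgery, and the single choroid plexus marker measured was higher after sham. The part of these cell types in the fasting results was not tested.

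By day, fasting calls were few. On day 1 after sham, 7 of 94 members were lower and 0 higher in the limma test, where 3.67% of all genes passed (1.82% higher and 1.85% lower), and all 7 were ribosomal proteins: Mrps25, Mrps33, Mrpl36, Mrpl42, Mrps2, Mrpl34 and Mrps21. Mrps33, a small subunit protein, fell by 0.40 ± 0.09 (SE, adjusted p = 0.00599, limma) and kept its call without any single library. Mrps25 fell by 0.34 ± 0.07 (adjusted p = 0.00529) and lost it without sham IF day 1 replicate 3, without which the count was 1. With only the groups compared in the fit, 0 members passed on day 1 in either surgery. On day 1 after stenosis 5 passed in the fit over all groups, where 4.37% of all genes did (2.05% higher and 2.32% lower), with Iars2 higher by 0.29 ± 0.07 (adjusted p = 0.00431) and Mrpl35, Mrpl36, Mrps5 and Lars2 lower. Leaving out 1 library ended the call of Mrps5 in 6 of 7 cases, of Mrpl36 in 4, of Mrpl35 and Lars2 in 2 each, and of Iars2 in 0.

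On day 14 after sham, Iars2 was higher by 0.21 ± 0.06 (SE, adjusted p = 0.033, limma) and Mrps25 lower by 0.24 ± 0.07 (adjusted p = 0.0483), where 4.39% of all genes passed (2.13% higher and 2.26% lower). Leaving out 1 library ended the call of Iars2 in 6 of 8 cases and that of Mrps25 in 7 of 8. On day 30 after sham 5 passed, where 4.82% did (1.70% higher and 3.12% lower): Fars2, the phenylalanine enzyme, was higher by 0.30 ± 0.09 (adjusted p = 0.0236, limma), and Mrps25, Mrps22, Ears2 and Yars2 were lower. Leaving out 1 library ended the call of Yars2 in 7 of 8 cases, of Fars2 in 5, of Ears2 in 4 and of Mrps25 in 1. Mrps22 fell by 0.34 ± 0.09 (adjusted p = 0.0109) and kept its call without any single library of both groups, and it was the 1 member past the threshold with only the groups compared in the fit (adjusted p = 0.0314, limma). On day 21 after sham (0.382% of all genes), day 21 after stenosis (0.802%), day 7 after stenosis (2.25%) and day 30 after stenosis (1.35%), 0 members passed in the limma test or by limma-voom, with 5, 8, 5 and 6 members at an unadjusted p under 0.05.

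On day 7 the ribosomal proteins stood low in the sham AL group, which is the control of both the stenosis contrast under AL and the fasting contrast after sham. The group mean was the lowest of the 20 for 51 of the 94 members (54.3%), against 15.5% of all genes tested. Among genes under 2000 bases it was the lowest for 21 of 31 members (67.7%) and for 37.4% of protein-coding genes. Mrps11, a small subunit protein, read 9.02, 7.76, 8.40 and 3.44 FPKM in the 4 sham AL libraries. It read 9.29, 9.84, 9.95 and 10.9 FPKM in the 4 BCAS AL libraries and 7.06, 11.1 and 12.2 FPKM in the 3 sham IF libraries. All 4 sham AL libraries lay below all BCAS AL libraries, and replicate 4 lay far below the other three, while 1 sham IF library overlapped the sham AL range. Mrps24 read 45.6, 30.6, 26.5 and 23.1 FPKM in sham AL and 36.8, 42.5, 40.1 and 42.5 FPKM in BCAS AL, so that replicate 1 lay above all of the stenosis libraries. Mrpl27, a large subunit protein, read 51.0, 45.8, 43.3 and 30.4 FPKM in sham AL and 44.4, 60.9, 55.8 and 63.3 FPKM in BCAS AL. Here the groups overlapped, with replicate 4 again the lowest of the sham AL libraries.

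In the stenosis contrast under AL on day 7, 4 of 93 members passed the limma test, where 2.63% of all genes did (1.64% higher and 0.987% lower). Mrpl40 was higher by 0.35 ± 0.09 (SE, adjusted p = 0.0241), Mrps11 by 0.50 ± 0.13 (adjusted p = 0.0315), Mrps24 by 0.40 ± 0.11 (adjusted p = 0.0333) and Mrpl27 by 0.40 ± 0.12 (adjusted p = 0.0483). In the fasting contrast after sham, 7 passed, where 9.05% of all genes did (4.79% higher and 4.26% lower): Mrps26, Mrps24, Mrpl11, Mrpl2, Mrps11 and Mrpl27 were higher, and Cars2 lower, and the split was 3 higher and 2 lower by limma-voom. The 2 contrasts share the sham AL libraries, so their agreement is not independent. The median over the 93 members other than Lars2 was 0.14 and 0.15 on the log2 scale, against 0.01 in each for all genes. Without the libraries rich in short-gene fragments, of which sham AL replicates 2 and 4 are on this day, the members' medians were 0.02 and 0.00059. In the contrasts without that group, BCAS against sham under IF and IF against AL after stenosis, the medians were −0.02 and −0.03. The stenosis count fell from 4 to 0 without sham AL replicate 4, and the fasting count fell from 7 to 0 without sham IF replicate 3. Each of the 4 stenosis calls was also lost on leaving out BCAS AL replicate 2, replicate 3 or replicate 4. Each of the 7 fasting calls was also lost without sham AL replicate 4. Without sham AL replicate 1 the counts rose to 29 and 33, and with only the groups compared in the fit 0 members passed in either contrast. The stenosis by diet difference on day 7 passed for 0 of 93 members (0.0318% of all genes, 17 members at an unadjusted p under 0.05, 0 by limma-voom).

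Compared with the 16 sham AL libraries of the other days, sham AL day 7 had 45 of 93 members lower and 1 higher in the limma test, where 19% of all genes passed (7.80% higher and 11.2% lower). Large subunit genes accounted for 31 of the lower calls and small subunit genes for 14. None of the 16 synthetases other than Lars2 was lower in this test, and 1 of them, Cars2, was higher (by 0.23 ± 0.08, adjusted p = 0.041). By limma-voom Cars2 was higher by 0.41, and with median centring it did not pass (0.22, adjusted p = 0.0551, limma). Mrps24 was lower by 0.49 ± 0.08 (SE, adjusted p = 0.000124, limma) and kept its call whichever single library was left out. The count rests on replicate 4. Without it 1 member passed, without replicate 1 there were 63, with only the groups compared 1, and without the libraries rich in short-gene fragments 0 did. Replicate 4 held the lowest value of the 78 libraries for 60 of the 94 members (63.8%), against 17.5% of all genes tested and, under 2000 bases, for 80.6% of 31 members and 40.9% of protein-coding genes. Of the 60, 36 were large subunit genes, 23 small subunit genes and 1 a synthetase.

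The 93 members other than Lars2 had a median log2 difference from those 16 libraries of 0.03 in replicate 1, −0.17 in replicate 2, −0.14 in replicate 3 and −0.48 in replicate 4. In replicate 4, 81 of the 93 were lower, and the median was −0.55 for large subunit genes, −0.57 for small subunit genes and 0.08 for the other synthetases. The difference went with listed gene length in replicate 4. For all protein-coding genes its median was −0.46 under 2000 bases, −0.08 from 2000 to 5000 bases and 0.17 from 5000 bases up, and for the members it was −0.69, −0.48 and −0.28. In the same contrast all 5 smooth muscle markers were lower and all 4 oligodendrocyte markers, 3 of 4 fibroblast markers and 2 of 3 neuronal markers were higher. In sham AL day 7 the oligodendrocyte markers summed to between 15.9 and 153 FPKM, against 8.92 to 23.0 FPKM in BCAS AL day 7, and the smooth muscle markers to between 2052 and 5668 FPKM against 3019 to 5607 FPKM. The part of these differences in the result on the members was not tested.

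**Figure D3:**
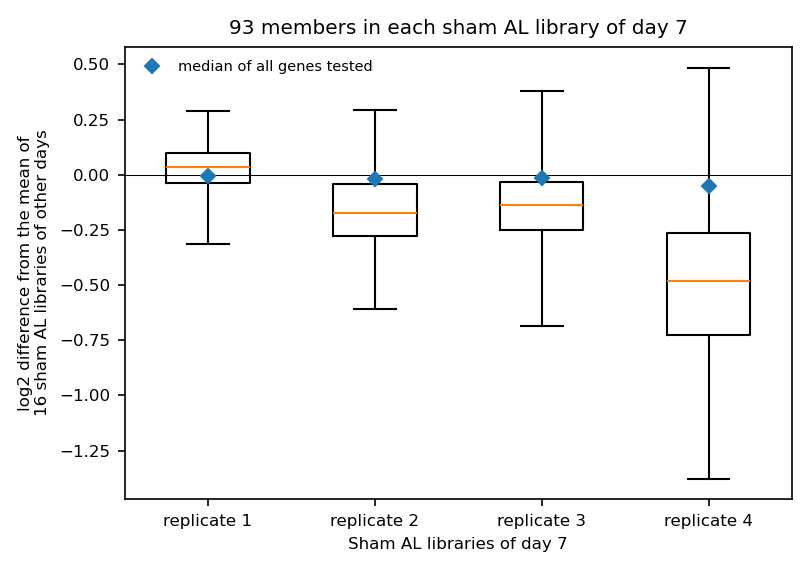
Log2 difference of 93 members (Lars2 left out) in each sham AL library of day 7 from the mean of the 16 sham AL libraries of the other days, with boxes from the lower to the upper quartile, a line at the median and whiskers over the full range. Diamonds give the median of all genes tested, which is −0.05 in replicate 4 while the members' median is −0.48 there.

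Lars2, which charges the mitochondrial leucine tRNA and lies on chromosome 9 (GRCm38, 123366927 to 123462666, plus strand), behaved unlike the rest of the set. It was singled out with its day 7 values known, so its values on that day are given as a description. The 4 sham AL libraries of day 7 read 12.6, 66.0, 11.7 and 41.7 FPKM. The BCAS AL libraries of that day read 3.64, 3.48, 3.56 and 2.61 FPKM, the sham IF libraries 3.72, 4.66 and 3.26 FPKM, and the BCAS IF libraries 3.45, 2.67, 2.82 and 3.18 FPKM. Every sham AL library lay above all 11 others of the day. On the log2(FPKM + 1) scale Lars2 was lower by 2.62 in BCAS AL than in sham AL (−2.98 to −2.18 when 1 library was left out) and lower by 2.45 in sham IF than in sham AL (−2.81 to −2.01). It differed by −0.27 between BCAS and sham under IF and by −0.10 between IF and AL after stenosis. The mean log2 level of the other 93 members was 3.44 ± 0.20 (SD, n = 4) in sham AL, 3.58 ± 0.09 (n = 4) in BCAS AL, 3.57 ± 0.12 (n = 3) in sham IF and 3.54 ± 0.06 (n = 4) in BCAS IF. Lars2 was thus highest in the group where the other members were lowest. BCAS AL day 1, at rank 2 of the 20 groups in Lars2, held rank 5 in the mean of the other members (3.63). The correlation of Lars2 with that mean was −0.36 over the 78 libraries and −0.13 over the 70 under 9 FPKM of Lars2. Without the libraries rich in short-gene fragments the Lars2 differences against sham AL were −1.61 and −1.44.

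The other group with high Lars2 was BCAS AL on day 1, whose 3 libraries read 3.87, 55.0 and 13.3 FPKM, against 4.75, 2.46, 9.37 and 2.65 FPKM in sham AL. These groups overlapped. Lars2 was the 1 member that passed on that day under AL, where 0.376% of all genes passed (0.223% higher and 0.153% lower), at 1.59 ± 0.38 on the log2 scale (SE, adjusted p = 0.0412, limma). Without BCAS AL day 1 replicate 2, which is rich in short-gene fragments, it was 0.67 (adjusted p = 0.522), and the call was lost on leaving out any of 5 of the 7 libraries. With only the groups compared in the fit it did not pass. Fasting against AL after stenosis on day 1 gave −1.51 ± 0.38 (adjusted p = 0.0127, limma), and −0.59 (adjusted p = 0.484) without that library. The remaining 18 groups had means between 2.63 FPKM (BCAS IF day 30) and 5.30 FPKM (BCAS IF day 1, SD 4.18, n = 4), and neighbours in that order differed by less than the larger of their SDs. By group mean the order began with sham AL day 7 at 33.0 ± 26.1 FPKM (SD, n = 4) and BCAS AL day 1 at 24.0 ± 27.2 FPKM (SD, n = 3).

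**Figure D4:**
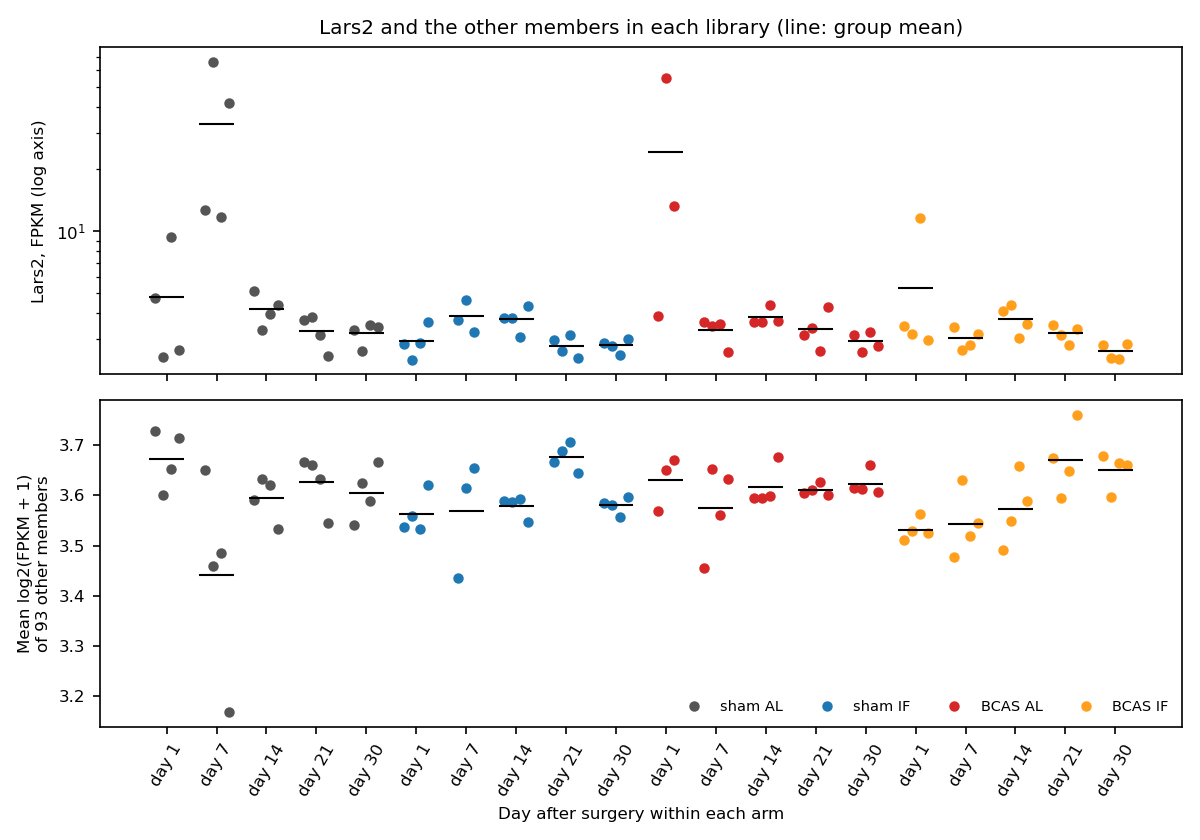
Upper panel, Lars2 in each of the 78 libraries, in FPKM on a log axis. Lower panel, mean log2(FPKM + 1) of the 93 other members in the same libraries, with groups ordered by arm and day and lines at the group means. Lars2 exceeds 9 FPKM in 8 libraries, all 4 of sham AL day 7 among them, and the other members reach their lowest mean, 3.17, in sham AL day 7 replicate 4.

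Over all libraries, Lars2 was split into 8 libraries between 9.37 and 66.0 FPKM and 70 between 2.39 and 5.11 FPKM, with a median of 3.22 FPKM in the latter. The 8 were the 4 sham AL libraries of day 7, BCAS AL day 1 replicates 2 and 3, BCAS IF day 1 replicate 3 and sham AL day 1 replicate 3. The rows whose 20 group means were most like those of Lars2, by Pearson r on the log2 scale, were not members. Of these 5, 2 are annotated as miRNA, and the others as rRNA, misc_RNA and lincRNA. They were Gm23935 (0.97), CT010467.1 (0.97), Rn7sk (0.97), Gm24270 (0.93) and Gm26917 (0.92). The nearest members were Cars2 (0.67), Yars2 (0.49) and Mrps18b (0.37), and the median member had −0.35. CT010467.1 is annotated as ribosomal RNA and Rn7sk encodes the nuclear RNA 7SK, a regulator of transcription elongation. Group means share the libraries and their depth, so these values only describe the pattern.

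The 8 libraries highest in Lars2 were the 8 highest in CT010467.1, Gm23935 and Rn7sk. These rows were picked for likeness to Lars2 over group means that include day 7. The match in these libraries therefore follows in part from that choice and is only a description. CT010467.1 read 173 to 1335 FPKM in them and 18.6 to 65.8 FPKM in the other 70. Rn7sk read 9.81 to 343 FPKM in them and 0 to 6.99 FPKM in the other 70. For Gm24270 7 of the 8 were the highest, and for Gm26917 6 of the 8. Within those 70 the correlation with Lars2 on the log2 scale was 0.72 for Gm23935, 0.65 for CT010467.1, 0.45 for Rn7sk, 0.42 for Gm24270 and 0.34 for Gm26917. Over all 78 it was 0.96, 0.96, 0.91, 0.88 and 0.86 in that order. In the fasting means, 4 of 6 measured rows that overlap ribosomal RNA or satellite repeats were lower after sham and 3 of 6 after stenosis. Of all genes, 11.9% passed as lower in each of these means. The Lars2 means were −0.66 ± 0.16 (SE) and −0.36 ± 0.16, of which the former includes the day 7 values on which Lars2 was singled out, and without day 7 they were −0.22 ± 0.18 and −0.42 ± 0.18. Of the 6 rows that overlap ribosomal RNA or satellite repeats, all 6 were also lower in both day 7 contrasts against sham AL. Of all genes, 0.987% passed as lower in the stenosis contrast and 4.26% in the fasting contrast. These contrasts share the sham AL libraries, so they are not independent, and they use the libraries on which Lars2 was singled out. CT010467.1 and Gm26917 are among these 6 rows and were named above as most like Lars2. The mitochondrial ribosomal RNA rows mt-Rnr1 and mt-Rnr2 are also among the 6. Their correlation with Lars2 was 0.38 and 0.44 over the 78 libraries. They differed less, with mt-Rnr1 at 644 to 1433 FPKM in the 8 libraries and 407 to 1343 FPKM in the other 70.

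Gm23935 (chr16:11144125-11144181, plus strand) and Gm24270 (chr9:56223715-56223771, minus strand), 57-base rows annotated as miRNA, have the same sequence in the GENCODE M21 transcripts, shown because both rows rank among the 5 most like Lars2.
Gm23935: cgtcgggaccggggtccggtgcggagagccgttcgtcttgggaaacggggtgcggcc

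The longest exact stretch that any of the 9 annotated Lars2 transcripts shares with these rows was 13 bases for CT010467.1, 12 for Gm26917, 11 for Rn7sk and 8 for Gm23935 and Gm24270. These lengths cover exact stretches of the annotated transcripts of the named rows only, so they do not show where Lars2 reads came from. The part of ribosomal or short RNA in the Lars2 values was not tested.

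**Figure D5:**
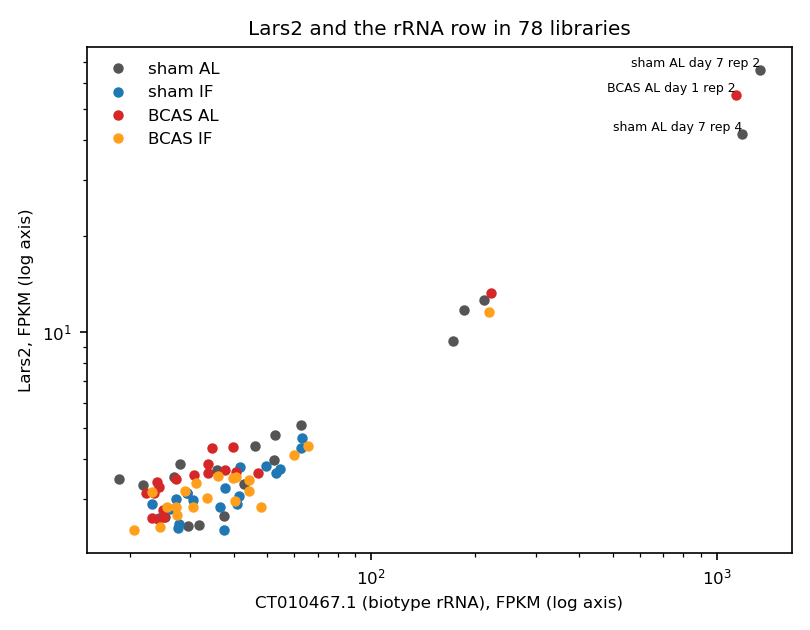
Lars2 against the ribosomal RNA row CT010467.1 in each of the 78 libraries, both in FPKM on log axes, coloured by arm. The 8 libraries above 9 FPKM of Lars2 are the 8 above 172 FPKM of CT010467.1, and the 3 named libraries, which are those rich in short-gene fragments, lie highest.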

How the data were processed

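RNA from cerebral arteries was sequenced as 78 libraries in 20 groups. Per the labels' protocols, a service company made the libraries from 2 ug of total RNA extracted by RNeasy kit. The authors deposited 1 table of FPKM values per gene with gene length in bases, per the file headers. Fragments were recovered as FPKM times length, divided by the smallest such value above 0 in the library, and all values (100%) under 1000 fragments came out whole within 0.05. Which aligner, counting tool, build or annotation the authors used is not given in the sources used here, and DESeq 1.10.1 is named in the submitters' processing notes without a role. Of the 95 members, 90 have the same coordinates in GENCODE M21 (GRCm38).

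The 15707 genes reaching 1 FPKM in 3 or more libraries were tested with limma 3.58.1 (R 4.3.3, trend and robust variance, statmod 1.5.0) on log2(FPKM + 1), with 1 mean per group over all 78 libraries and Benjamini-Hochberg adjustment over all genes at 0.05. Fold changes on this scale understate those of low genes. Figures used Python 3.11.15 with matplotlib 3.10.9. The script was tested on simulated data. Alternatives were a pseudocount of 0.1, no filter, median centring, limma-voom on recovered fragments, only the groups compared, leaving out libraries rich in short-gene fragments and leaving out each library.

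Lars2 is left out of counts of calls that use day 7. Members, gene lists and the day 7 comparison of Lars2 were chosen with earlier results of these data known. Named were, per comparison, up to 10 members with the smallest p past the threshold in each direction (the 2 smallest where fewer than 3 passed), the 5 highest and lowest and the 5 most and least variable members, the 5 rows and 3 members most like Lars2, and a panel of members with known roles. Mrps11, Mrps24 and Mrpl27 show the day 7 libraries as members called in both contrasts against sham AL. Library depth limits the precision of the lowest genes.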

Additional observations from a re-analysis of the deposited data

Results flagged for a closer look

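In groups of 4 libraries, the gap of 1 library to the nearest other, as a share of the group's range, was compared with Dixon's critical value for 4 samples. Over 90 tests of group and measure, 13 exceeded it, where chance flags about 1 in 20 groups. The measures overlap in their members and can flag the same library again. The tests are therefore not independent, and the count does not show an excess over that rate. For the mean log2 level of the 93 members other than Lars2, sham IF day 14 replicate 4 was low (gap 0.843, 3.55 against 3.59 in the others), BCAS AL day 14 replicate 4 was high (0.940, 3.68 in that library) and BCAS AL day 30 replicate 3 was high (0.856, 3.66 against at most 3.61). For the large subunit genes alone, sham IF day 1 replicate 4 (0.836), BCAS AL day 14 replicate 4 (0.887) and BCAS AL day 30 replicate 3 (0.908) were high. For the small subunit genes, sham IF day 14 replicate 4 was low (0.966) and BCAS IF day 1 replicate 3 was high (0.859). For the synthetases other than Lars2, sham AL day 21 replicate 4 was low (0.928) and sham IF day 21 replicate 3 was high (0.924).

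For Lars2 itself, BCAS AL day 7 replicate 4 was low (0.857), at 1.85 on the log2(FPKM + 1) scale against 2.16 to 2.21 in the others. BCAS AL day 14 replicate 3 was high (0.898), at 2.43 against at most 2.23. BCAS IF day 1 replicate 3 was high (0.893), at 3.65 against 1.99 to 2.17, and it is 1 of the 8 libraries over 9 FPKM of Lars2. The sham AL libraries of day 7 did not meet this measure for any of the quantities.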

How the results depend on the processing

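Counts of members called moved by over 1.5 times, or Lars2 by over its spread, under these alternatives, and the cause was not tested. Without the filter on low values, fasting after sham called 0 on day 14, 3 on day 30 and 12 over the mean, and fasting after stenosis 10 over the mean. Median centring and limma-voom each left 1 call for fasting after sham on day 14, and limma-voom left 26 for sham AL day 7 against the other days. With only the groups compared, which leaves fewer libraries, calls were 0 for stenosis under AL on days 1 and 7, 0 for fasting after sham on days 1, 7 and 14, 0 for fasting after stenosis on day 1, 1 on day 14, 1 for fasting after sham on day 30 and 1 for sham AL day 7. Without the libraries rich in short-gene fragments, calls were 0 for stenosis under AL on days 1 and 7, 2 and 4 for fasting after stenosis on days 1 and 14, 0 for fasting after sham on day 7 and 0 for sham AL day 7, and Lars2 was −1.61 and −1.44. Without day 7 in the mean, a choice made after seeing the data, fasting called 14 members after sham and 15 after stenosis. For low synthetases the size depends on the scale: Cars2 was −0.14 and −0.18 in the fasting means after sham and stenosis, and −0.26 and −0.29 by limma-voom. A pseudocount of 0.1 moved none of these counts beyond 1.5 times, and no direction of a named member reversed in any alternative run.

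Leaving out 1 library gave ranges of 0 to 1 (stenosis, AL, day 1), 0 to 29 (stenosis, AL, day 7), 1 to 8, 0 to 33, 0 to 1 and 1 to 4 (fasting after sham, days 1, 7, 14 and 30), 2 to 7 and 1 to 5 (fasting after stenosis, days 1 and 14), 13 to 24 and 15 to 20 (fasting means after sham and stenosis), 0 to 6 (stenosis by diet, day 7), 1 to 63 (sham AL day 7) and 32 to 54 (all groups). For Lars2 on day 7 it gave −2.98 to −2.18 (stenosis, AL), −2.81 to −2.01 (fasting, sham), −0.36 to −0.16 (stenosis, IF) and −0.18 to −0.05 (fasting, BCAS). The other counts stayed at 0. No paired analysis was possible because the labels give no replicate numbers that groups share. Limma-voom, run on the recovered fragments, called 21 members in each fasting mean.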
